A study of Mus musculus with 16 samples.

Results

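The 38 genes described here are T, NK and B lymphocyte genes, taken by their mouse gene symbols from a kidney count table of 52338 genes, and all 38 were found. They comprised 31 genes of T and NK cells and 7 of B and plasma cells, grouped below by role, and 36 of them had enough counts to be among the 17731 genes tested. Kidneys came from C57BL6 mice on a high-fat diet in 4 groups of 4 libraries, collected on day 15. The groups were FAN with time-restricted feeding, FAN with ad libitum feeding, vehicle with time-restricted feeding and vehicle with ad libitum feeding. All 4 groups therefore shared the high-fat diet, and FAN, which the labels do not spell out, is the kidney treatment. The column names of FAN and vehicle libraries alike hold the word folic, so that word does not tell them apart. No sex, age or feeding hours are given in the labels used here. The labels give separate samples and do not say that each came from its own animal, so p-values measure the spread between these samples. The series' title concerns time-restricted feeding and kidney damage after injury, and the comparisons below address how lymphocyte transcripts stood in each group.

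T cells recognise peptides through a receptor whose chains are held at the surface by the CD3 complex, and the kinases LCK and ZAP70 pass its signal on. CD4 marks helper and regulatory T cells and CD8 marks cytotoxic T cells, while NK cells kill without that receptor and share granzymes and perforin with CD8 T cells. B cells carry a membrane immunoglobulin with the CD79 signalling chains, and plasma cells secrete it. Resting mouse kidney holds few lymphocytes, and they are known to gather in the interstitium after tubular injury.

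Total counts per library ranged from 12450812 to 33976660. Levels are CPM, counts relative to the library total, scaled by TMM, a method that sets the bulk of genes level between libraries. Fold changes are log2 changes with their standard error (SE) from edgeR. At these depths a count of 0 allowed up to 0.0615 to 0.279 scaled CPM (3 counts, counting error only). Values are given in the order of the column numbers 6, 10, 11 and 12 for FAN time-restricted, 6, 7, 10 and 12 for FAN ad libitum, and 1 to 4 for each vehicle group. FAN columns could be tied to their group but not to a sample title. The share of counts on mitochondrial transcripts was 6.94% to 14.8% in FAN ad libitum libraries and 17.2% to 26.7% in the other 3 groups. The S numbers of the column names were taken as sample sheet positions, which no label states. A gap of 50 between numbers was set to separate runs, and this gave 3 runs. Earliest, middle and latest, like early and late, refer to the order of these numbers and not to known dates or batches. The earliest run held FAN ad libitum 6 and 7, FAN time-restricted 6 and libraries 1 and 2 of each vehicle group, the middle run held vehicle libraries alone and the latest run FAN libraries alone, so outside the earliest run sheet position and FAN cannot be told apart. FAN ad libitum 6 and 7 lay far from 10 and 12 in their counts (chi-square per gene 146.4 to 154.7, against 20.73 and 26.66 within each pair). Early minus late, the median log2 difference of all genes in that group ran from -0.208 for the shortest to 0.221 for the longest of 5 classes of transcript length. FAN against vehicle, those medians ran from -0.0286 to 0.189 under time-restricted and from -0.19 to 0.345 under ad libitum feeding, and the part of this trend in the members' values was not tested. In 1 library, vehicle time-restricted 2, Ighm was at 78.7 CPM and Jchain at 15.1 CPM, far above the others of its group. The same library had 312 CPM of 9 adipocyte and lymph node stroma markers, against 14.9 to 44.5 CPM in the other 3 libraries of its group. The marker sum reached 165 CPM in vehicle ad libitum libraries, whose B and plasma cell gene sums were 15.7 to 22.8 CPM, and 93.6 CPM in FAN ad libitum libraries. Whether that tissue bears on the B cell values of vehicle time-restricted 2 was not tested.

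FAN kidneys had higher levels of T and NK cell genes than vehicle kidneys under either feeding regimen, while no B or plasma cell gene tested passed as higher in the edgeR fit of all libraries. With other settings up to 3 B and plasma cell genes passed as higher in a comparison, and they are given with those genes below. Under time-restricted feeding 28 of 30 T and NK genes tested rose, none fell and 2 did not pass, beside 24.5% of all 17731 genes tested that rose and 43.5% that rose or fell. Under ad libitum feeding 26 of 30 rose, none fell and 4 did not pass, beside 32.1% of all genes that rose and 60.7% that rose or fell. The same 26 genes rose under both regimens, and the other two, Prf1 and Tbx21, passed under time-restricted feeding. Of 6 B and plasma cell genes tested, none rose or fell under time-restricted feeding, while under ad libitum feeding none rose and 1 fell, where 28.6% of all genes fell. The median log2 change of the T and NK genes was 2.42 under time-restricted and 2.02 under ad libitum feeding, against 0.05 and 0.06 over all genes tested. In 26 of the 31 T and NK genes the 4 FAN libraries lay above the 4 vehicle libraries under time-restricted feeding, and in 21 under ad libitum feeding, while groups did not overlap in 40.3% and 54.9% of all genes in the same comparisons, in either direction. In 19 of the 31 T and NK genes all 8 FAN libraries lay above all 8 vehicle libraries, which was so of 15% of all genes. Within the earliest run of sheet positions alone, with 1 FAN time-restricted library, assumed to vary like the others, and 2 libraries in each other group, 18 of 38 members rose under time-restricted feeding, and 18 rose and 1 fell under ad libitum feeding, where 27.7% and 48% of all genes tested rose or fell. Members that no longer passed there under time-restricted feeding were Cd3e (0.99), Cd247 (1.19), Zap70 (2.12), Lat (1.15), Cd6 (1.51), Gzma (2.40), Prf1 (1.34), Nkg7 (1.37), Tbx21 (1.27) and Foxp3 (2.07), with log2 changes in parentheses and edgeR adjusted p of 0.0557 to 0.452. For the ad libitum libraries they were Cd247 (0.61), Trbc1 (0.36), Lat (0.82), Cd8a (1.12), Gzma (0.39), Gzmb (1.60), Nkg7 (0.80) and Klrb1c (1.29), with edgeR adjusted p of 0.0528 to 0.727. In bulk kidney RNA, more cells of a type and more RNA per cell cannot be told apart.

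**Figure D1:**
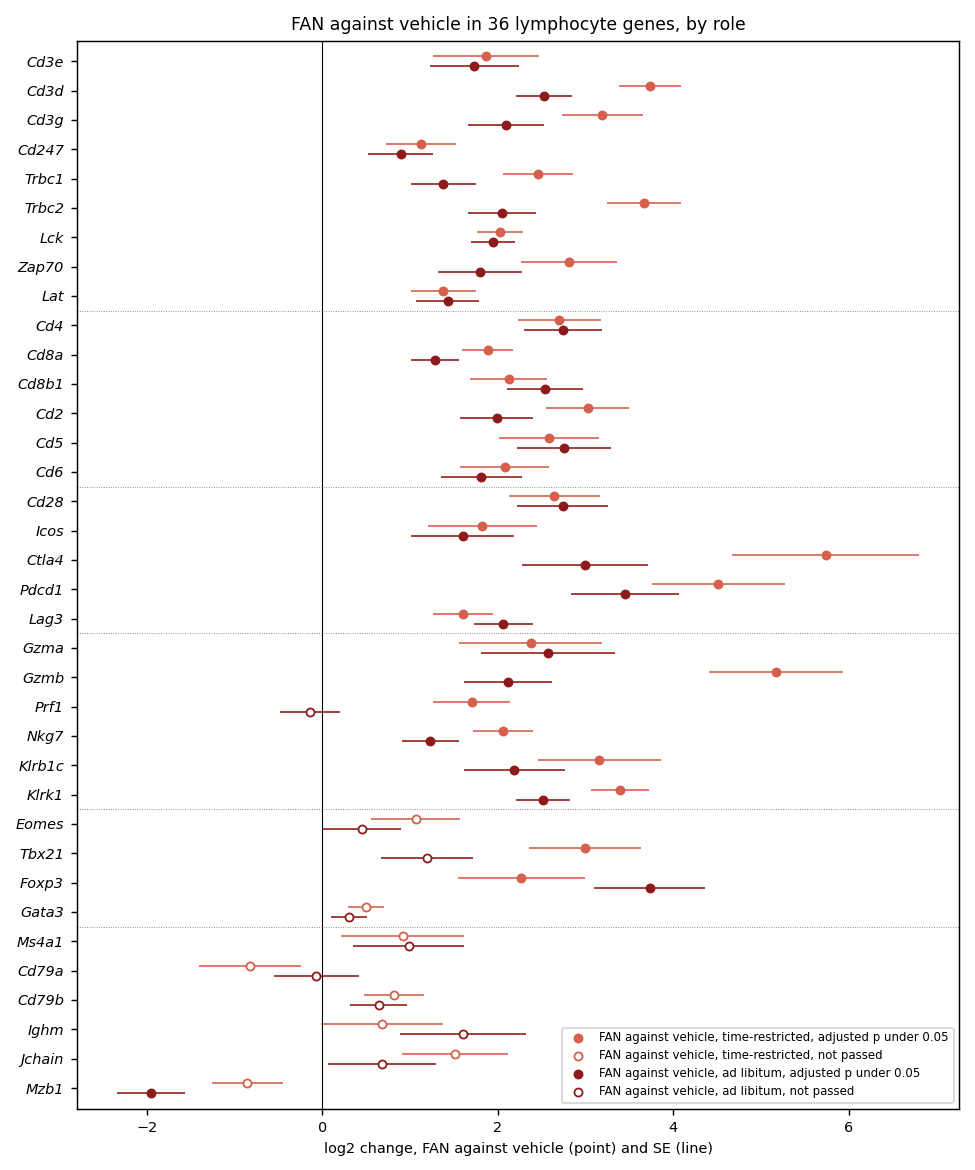
Log2 change of FAN against vehicle for the 36 lymphocyte genes tested, with time-restricted feeding in light red above ad libitum feeding in dark red for each gene, points for the change, lines for 1 SE, filled where edgeR's adjusted p was under 0.05, and dotted lines between roles. The T and NK genes down to Klrk1 lie right of 0 apart from Prf1 under ad libitum feeding, and the B and plasma cell genes at the bottom straddle 0, with Mzb1 filled on the left. Changes of Ctla4 and Gzmb under time-restricted feeding rest on 1 count in the vehicle libraries and are no measure of size.

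The T cell receptor complex and its first signalling proteins were measured by 9 genes, and all 9 rose in both comparisons. Cd3e, Cd3d and Cd3g encode CD3 chains and lie side by side on chromosome 9 (GRCm38, 44969572 to 45009627). Cd3d (ENSMUSG00000032094) measured 3.70, 4.20, 5.23 and 4.37 CPM in FAN time-restricted and 2.18, 2.5, 3.71 and 4.62 CPM in FAN ad libitum libraries. Cd3d was at 0.169, 0.425, 0.315 and 0.407 CPM in vehicle time-restricted and 0.773, 0.666, 0.336 and 0.378 CPM in vehicle ad libitum libraries. Every FAN library stood above every vehicle library, and Cd3d rose with a log2 change of 3.73 ± 0.35 (SE, edgeR adjusted p = 2.44e-07) under time-restricted feeding and 2.53 ± 0.32 (SE, edgeR adjusted p = 2.11e-06) under ad libitum feeding. Cd3g measured 6.15, 8.22, 7.51 and 4.27 CPM in FAN time-restricted and 3.46, 3.20, 3.55 and 7.25 CPM in FAN ad libitum libraries. Cd3g was at 0.931, 0.922, 0.315 and 0.652 CPM in vehicle time-restricted and 1.61, 1.37, 0.192 and 0.757 CPM in vehicle ad libitum libraries. FAN and vehicle libraries again did not overlap, with FAN ad libitum 12 well above the other 3 of its group, and the log2 changes were 3.19 ± 0.46 (SE, edgeR adjusted p = 2.87e-05) under time-restricted and 2.10 ± 0.43 (SE, edgeR adjusted p = 0.000429) under ad libitum feeding. Cd3e measured 0.623, 1.09, 0.825 and 0.372 CPM in FAN time-restricted and 1.76, 1.89, 0.591 and 1.70 CPM in FAN ad libitum libraries. Cd3e was at 0.466, 0.142, 0.135 and 0 CPM in vehicle time-restricted and 0.605, 0.666, 0.192 and 0.252 CPM in vehicle ad libitum libraries. Its FAN and vehicle libraries overlapped under both regimens, FAN ad libitum 10 was at the level of vehicle libraries, and the log2 changes were 1.87 ± 0.61 (SE, edgeR adjusted p = 0.0187) and 1.73 ± 0.51 (SE, edgeR adjusted p = 0.00680) under time-restricted and ad libitum feeding. Without FAN time-restricted 10 or vehicle time-restricted 2 or 3, Cd3e no longer passed under time-restricted feeding (edgeR adjusted p = 0.0547 to 0.0629). Cd247, the CD3 zeta chain that carries most of the signalling motifs, measured 1.25, 1.66, 1.49 and 0.743 CPM in FAN time-restricted and 1.53, 1.87, 0.867 and 1.34 CPM in FAN ad libitum libraries. Cd247 was at 0.466, 0.567, 0.675 and 0.733 CPM in vehicle time-restricted and 1.31, 0.841, 0.288 and 0.505 CPM in vehicle ad libitum libraries. Its libraries overlapped under ad libitum feeding, and its log2 changes were the smallest of the 9, at 1.12 ± 0.40 (SE, edgeR adjusted p = 0.0298) under time-restricted and 0.89 ± 0.37 (SE, edgeR adjusted p = 0.0467) under ad libitum feeding. The Cd247 call under time-restricted feeding was lost without FAN time-restricted 10 or 11 or vehicle time-restricted 1 or 2 (edgeR adjusted p = 0.0658 to 0.0873). Under ad libitum feeding the loss of any of 6 libraries ended it, namely 6, 7 and 12 of FAN and 2, 3 and 4 of vehicle (edgeR adjusted p = 0.0628 to 0.141). Cd247 also shares 3007 exon bases with Pou2f1 on the opposite strand, which had a log2 change of 0.14 under time-restricted (edgeR adjusted p = 0.448) and 0.59 under ad libitum feeding (edgeR adjusted p = 0.00116).

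Trbc1 and Trbc2 encode the alternative constant regions of the receptor's beta chain, so a T cell with an alpha-beta receptor uses either. They lie on chromosome 6 (GRCm38, 41538218 to 41539881 and 41546730 to 41548352) and are 95.6% identical over 518 coding bases, the first 259 without a difference. A stretch that holds the first differing base, in capitals, is shown for each because it marks how closely reads must be placed to tell the genes apart.
Trbc1: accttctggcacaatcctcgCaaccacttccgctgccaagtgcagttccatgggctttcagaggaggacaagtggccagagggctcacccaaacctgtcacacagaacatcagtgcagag
Trbc2: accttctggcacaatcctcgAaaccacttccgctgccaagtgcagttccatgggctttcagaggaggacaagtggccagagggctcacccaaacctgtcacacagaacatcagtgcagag
Reads of 1 gene could therefore have been counted for the other, and the pair is best read together. Trbc2 measured 8.44, 8.79, 9.82 and 5.20 CPM in FAN time-restricted and 3.23, 3.61, 5.16 and 9.70 CPM in FAN ad libitum libraries. Trbc2 was at 0.550, 0.673, 0.900 and 0.326 CPM in vehicle time-restricted and 1.78, 1.30, 0.479 and 1.64 CPM in vehicle ad libitum libraries. Every FAN library stood above every vehicle library, and the log2 changes of Trbc2 were 3.67 ± 0.42 (SE, edgeR adjusted p = 2.47e-06) under time-restricted feeding and 2.05 ± 0.38 (SE, edgeR adjusted p = 0.000161) under ad libitum feeding. Trbc1 measured 3.97, 4.20, 5.15 and 3.35 CPM in FAN time-restricted and 1.76, 1.95, 3.04 and 4.85 CPM in FAN ad libitum libraries. Trbc1 was at 1.02, 1.03, 0.405 and 0.489 CPM in vehicle time-restricted and 1.38, 1.44, 0.479 and 1.07 CPM in vehicle ad libitum libraries. FAN libraries were again above all vehicle libraries, with log2 changes of 2.46 ± 0.39 (SE, edgeR adjusted p = 7.52e-05) and 1.38 ± 0.37 (SE, edgeR adjusted p = 0.00369) under time-restricted and ad libitum feeding. Trbc1 did not pass under ad libitum feeding in the earliest run of sheet positions alone (0.36, edgeR adjusted p = 0.337) or with the 3 runs as a covariate (0.57, edgeR adjusted p = 0.177).

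Of the signalling genes, Lck, the kinase that starts the receptor signal, measured 4.63, 7.39, 6.37 and 4.55 CPM in FAN time-restricted and 6.47, 5.52, 6.07 and 8.92 CPM in FAN ad libitum libraries. Lck was at 1.31, 1.77, 1.35 and 1.14 CPM in vehicle time-restricted and 1.48, 2.21, 1.10 and 2.21 CPM in vehicle ad libitum libraries. Lck separated all FAN from all vehicle libraries, and it rose by nearly the same amount in both comparisons, with log2 changes of 2.02 ± 0.26 (SE, edgeR adjusted p = 7.10e-06) under time-restricted and 1.95 ± 0.25 (SE, edgeR adjusted p = 2.56e-06) under ad libitum feeding. Zap70, the kinase recruited to the phosphorylated CD3 chains, measured 1.09, 1.44, 1.49 and 0.743 CPM in FAN time-restricted and 1.13, 1.52, 0.473 and 1.91 CPM in FAN ad libitum libraries. Zap70 was at 0.339, 0.142, 0.135 and 0 CPM in vehicle time-restricted and 0.571, 0.245, 0.240 and 0.378 CPM in vehicle ad libitum libraries. FAN ad libitum 10 fell below vehicle ad libitum 1, and the log2 changes were 2.81 ± 0.55 (SE, edgeR adjusted p = 0.000476) under time-restricted and 1.80 ± 0.48 (SE, edgeR adjusted p = 0.00330) under ad libitum feeding. Lat, the adaptor on which ZAP70 acts, measured 2.14, 3.46, 3.10 and 1.77 CPM in FAN time-restricted and 2.76, 2.67, 2.13 and 3.61 CPM in FAN ad libitum libraries. Lat was at 1.06, 0.780, 1.26 and 0.978 CPM in vehicle time-restricted and 1.51, 1.47, 0.288 and 0.757 CPM in vehicle ad libitum libraries. The FAN and vehicle libraries did not overlap, and Lat rose with log2 changes of 1.38 ± 0.37 (SE, edgeR adjusted p = 0.00602) under time-restricted and 1.43 ± 0.36 (SE, edgeR adjusted p = 0.00217) under ad libitum feeding.

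All 6 coreceptor and surface receptor genes rose under both regimens, and in each of them every FAN library stood above every vehicle library. Cd4 (ENSMUSG00000023274), the coreceptor of helper T cells that mouse myeloid cells can also carry, measured 3.0, 6.39, 4.36 and 1.58 CPM in FAN time-restricted and 7.90, 7.38, 2.88 and 4.98 CPM in FAN ad libitum libraries. Cd4 was at 0.254, 0.815, 0.720 and 0.570 CPM in vehicle time-restricted and 1.31, 1.09, 0.479 and 0.442 CPM in vehicle ad libitum libraries. FAN ad libitum 6 and 7 were the highest, and the log2 changes of Cd4 were 2.70 ± 0.48 (SE, edgeR adjusted p = 0.000197) under time-restricted and 2.74 ± 0.45 (SE, edgeR adjusted p = 3.88e-05) under ad libitum feeding. Cd8a, the coreceptor of cytotoxic T cells that some dendritic cells share, measured 3.42, 3.37, 3.46 and 3.07 CPM in FAN time-restricted and 3.0, 3.36, 2.21 and 3.17 CPM in FAN ad libitum libraries. Cd8a was at 1.48, 0.567, 0.675 and 0.896 CPM in vehicle time-restricted and 1.61, 1.23, 0.863 and 1.07 CPM in vehicle ad libitum libraries. The 4 FAN time-restricted libraries lay close together, and the log2 changes of Cd8a were 1.88 ± 0.29 (SE, edgeR adjusted p = 4.30e-05) under time-restricted and 1.28 ± 0.27 (SE, edgeR adjusted p = 0.000495) under ad libitum feeding. Cd8b1, which encodes the CD8 beta chain and is closer to T cells alone, measured 0.934, 1.27, 2.36 and 1.95 CPM in FAN time-restricted and 2.03, 1.97, 1.46 and 1.21 CPM in FAN ad libitum libraries. Cd8b1 was at 0.169, 0.248, 0.675 and 0.407 CPM in vehicle time-restricted and 0.336, 0.421, 0.192 and 0.126 CPM in vehicle ad libitum libraries. Its log2 changes were 2.12 ± 0.44 (SE, edgeR adjusted p = 0.000737) and 2.54 ± 0.43 (SE, edgeR adjusted p = 5.62e-05) under time-restricted and ad libitum feeding, and Cd8a and Cd8b1 are neighbours within 56386 bases of chromosome 6. Cd2, an adhesion receptor of T and NK cells, measured 1.98, 2.89, 3.54 and 1.12 CPM in FAN time-restricted and 2.35, 2.58, 1.73 and 3.69 CPM in FAN ad libitum libraries. Cd2 was at 0.296, 0.390, 0.270 and 0.163 CPM in vehicle time-restricted and 1.01, 0.806, 0.144 and 0.568 CPM in vehicle ad libitum libraries. Cd2 rose with log2 changes of 3.03 ± 0.47 (SE, edgeR adjusted p = 5.69e-05) under time-restricted and 1.99 ± 0.42 (SE, edgeR adjusted p = 0.000465) under ad libitum feeding. Cd5, a receptor that dampens the T cell signal, measured 1.32, 2.10, 0.982 and 0.465 CPM in FAN time-restricted and 1.40, 1.74, 0.946 and 2.32 CPM in FAN ad libitum libraries. Cd5 was at 0.212, 0.213, 0.270 and 0.0815 CPM in vehicle time-restricted and 0.403, 0.245, 0 and 0.252 CPM in vehicle ad libitum libraries. FAN time-restricted 12 was the lowest FAN library for Cd5, and the log2 changes were 2.59 ± 0.57 (SE, edgeR adjusted p = 0.00134) under time-restricted and 2.76 ± 0.54 (SE, edgeR adjusted p = 0.000233) under ad libitum feeding. Cd6, a relative of Cd5 on T cells, measured 1.17, 1.18, 1.14 and 1.02 CPM in FAN time-restricted and 1.11, 1.48, 0.828 and 2.09 CPM in FAN ad libitum libraries. Cd6 was at 0.423, 0.354, 0.180 and 0 CPM in vehicle time-restricted and 0.538, 0.561, 0.144 and 0.252 CPM in vehicle ad libitum libraries. Its log2 changes were 2.08 ± 0.51 (SE, edgeR adjusted p = 0.00290) under time-restricted and 1.81 ± 0.46 (SE, edgeR adjusted p = 0.00239) under ad libitum feeding.

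All 5 costimulation and checkpoint genes rose under both regimens. Cd28, Ctla4 and Icos are related receptors of T cell activation within 283521 bases of chromosome 1, CD28 and ICOS strengthening the response and CTLA4 restraining it. Cd28 measured 1.67, 1.79, 1.02 and 0.743 CPM in FAN time-restricted and 1.40, 0.861, 0.946 and 1.52 CPM in FAN ad libitum libraries. Cd28 was at 0.212, 0.213, 0.180 and 0.244 CPM in vehicle time-restricted and 0.202, 0.105, 0 and 0.442 CPM in vehicle ad libitum libraries. All FAN libraries were above all vehicle libraries, with log2 changes of 2.65 ± 0.52 (SE, edgeR adjusted p = 0.000490) under time-restricted and 2.74 ± 0.52 (SE, edgeR adjusted p = 0.000171) under ad libitum feeding. Ctla4 (ENSMUSG00000026011) measured 1.44, 0.656, 0.864 and 0.372 CPM in FAN time-restricted and 0.796, 0.656, 0.276 and 1.88 CPM in FAN ad libitum libraries. Ctla4 was at 0, 0, 0.0450 and 0 CPM in vehicle time-restricted and 0.134, 0.245, 0 and 0 CPM in vehicle ad libitum libraries. The 4 FAN time-restricted libraries held 78 counts of Ctla4 and the 4 vehicle time-restricted libraries held 1, a depth-adjusted ratio of 79.4 with an exact 95% counting interval of 13.8 to 3180. Counting intervals, here and below, pool the counts of a group and leave out the spread between libraries. Under ad libitum feeding Ctla4 rose with a log2 change of 2.99 ± 0.72 (SE, edgeR adjusted p = 0.00151), and it passed under time-restricted feeding as well (edgeR adjusted p = 0.00031). Icos measured 1.09, 1.22, 0.825 and 0.0929 CPM in FAN time-restricted and 1.15, 1.01, 0.394 and 1.03 CPM in FAN ad libitum libraries. Icos was at 0.296, 0.142, 0.450 and 0 CPM in vehicle time-restricted and 0.202, 0.421, 0.144 and 0.442 CPM in vehicle ad libitum libraries. FAN time-restricted 12 and FAN ad libitum 10 lay within the vehicle ranges, and the log2 changes of Icos were 1.82 ± 0.62 (SE, edgeR adjusted p = 0.0245) under time-restricted and 1.60 ± 0.58 (SE, edgeR adjusted p = 0.0240) under ad libitum feeding. Icos no longer passed under time-restricted feeding without FAN time-restricted 6 or 10 or vehicle time-restricted 2 or 4 (edgeR adjusted p = 0.0509 to 0.0757), nor under ad libitum feeding without library 6 of FAN or library 1 or 3 of vehicle (edgeR adjusted p = 0.0582 to 0.0702).

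Pdcd1, which encodes the checkpoint receptor PD-1, measured 1.83, 1.01, 2.28 and 0.372 CPM in FAN time-restricted and 1.55, 2.01, 1.58 and 2.53 CPM in FAN ad libitum libraries. Pdcd1 was at 0.0847, 0, 0.135 and 0 CPM in vehicle time-restricted and 0.235, 0.315, 0 and 0.0631 CPM in vehicle ad libitum libraries. It had log2 changes of 4.51 ± 0.76 (SE, edgeR adjusted p = 0.000121) under time-restricted and 3.45 ± 0.61 (SE, edgeR adjusted p = 9.36e-05) under ad libitum feeding, and no FAN library was as low as any vehicle library. Lag3, a checkpoint receptor that binds MHC class II, measured 2.80, 2.84, 4.68 and 1.02 CPM in FAN time-restricted and 3.56, 3.98, 3.15 and 5.67 CPM in FAN ad libitum libraries. Lag3 was at 0.847, 1.06, 1.12 and 0.733 CPM in vehicle time-restricted and 0.907, 0.771, 1.20 and 1.07 CPM in vehicle ad libitum libraries. FAN time-restricted 12 fell within the vehicle time-restricted range, and the log2 changes of Lag3 were 1.60 ± 0.34 (SE, edgeR adjusted p = 0.00101) and 2.06 ± 0.33 (SE, edgeR adjusted p = 3.47e-05) under time-restricted and ad libitum feeding.

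**Figure D2:**
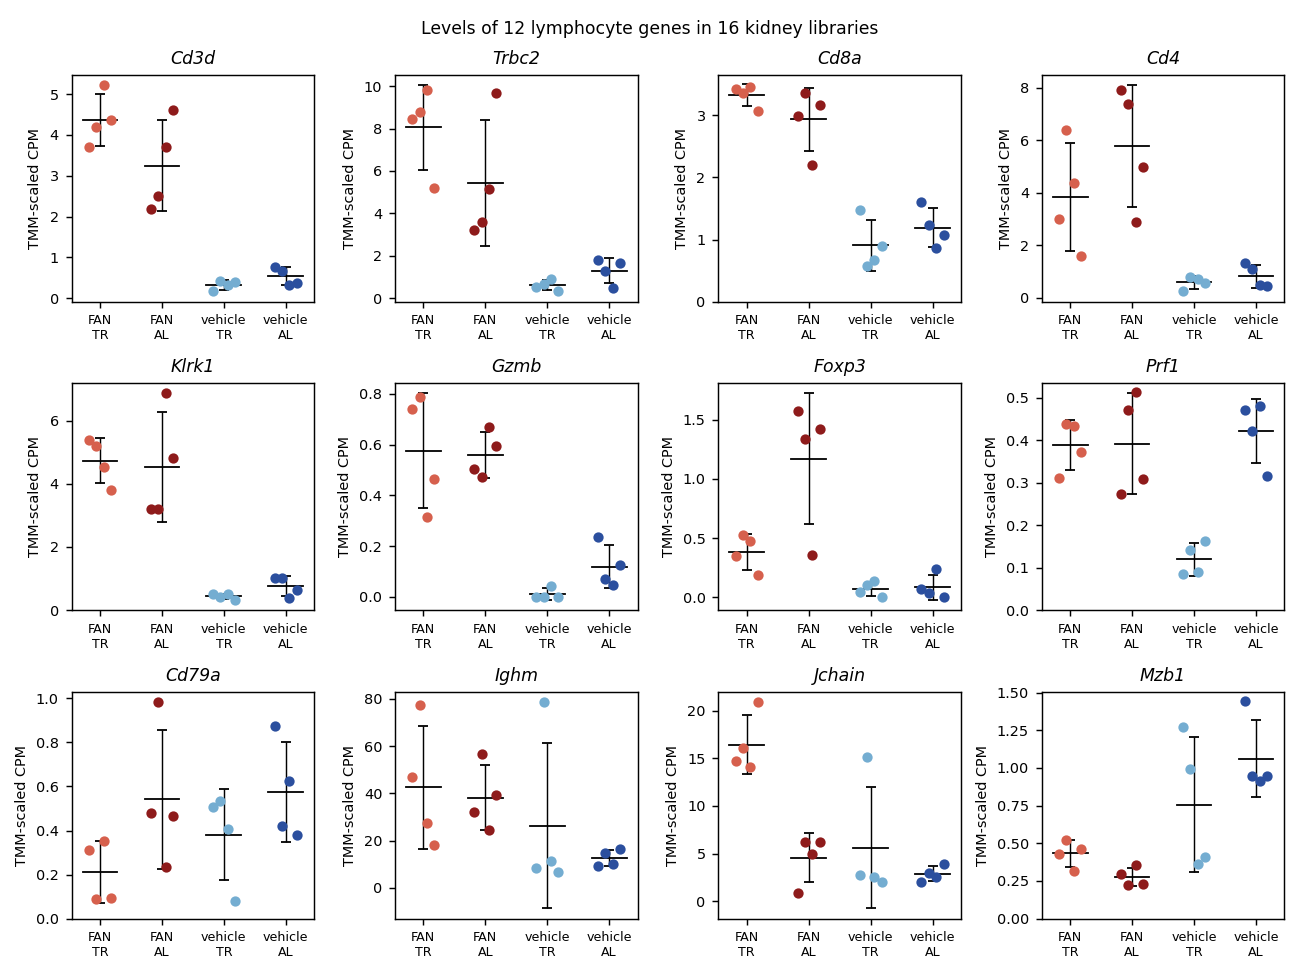
TMM-scaled CPM of 12 lymphocyte genes in the 16 libraries, with FAN time-restricted (TR), FAN ad libitum (AL), vehicle TR and vehicle AL from left to right, points for libraries in the order of their numbers, and lines for the mean and SD of 4. Cd3d, Trbc2, Cd8a, Cd4, Klrk1 and Gzmb show every FAN point above every vehicle point. Foxp3 is highest in FAN AL, Prf1 is low in vehicle TR alone, and single points stand out in vehicle TR for Ighm and Jchain.

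Granzyme and NK receptor genes rose with the T cell genes. Gzmb (ENSMUSG00000015437), whose protease is delivered into target cells, measured 0.739, 0.787, 0.314 and 0.465 CPM in FAN time-restricted and 0.503, 0.472, 0.670 and 0.593 CPM in FAN ad libitum libraries. Gzmb was at 0, 0, 0.0450 and 0 CPM in vehicle time-restricted and 0.235, 0.0701, 0.0479 and 0.126 CPM in vehicle ad libitum libraries. All FAN libraries were above all vehicle libraries, with 50 counts in FAN time-restricted and 1 in vehicle time-restricted libraries, a depth-adjusted ratio of 50.9 (exact 95% counting interval 8.73 to 2050). Under ad libitum feeding Gzmb rose with a log2 change of 2.12 ± 0.50 (SE, edgeR adjusted p = 0.00139), and edgeR's adjusted p under time-restricted feeding was 3.33e-05. Gzma, another granzyme, measured 0.661, 0.787, 0.393 and 0.279 CPM in FAN time-restricted and 0.272, 0.144, 1.22 and 1.24 CPM in FAN ad libitum libraries. Gzma was at 0.127, 0.106, 0.135 and 0 CPM in vehicle time-restricted and 0.235, 0.0701, 0 and 0.126 CPM in vehicle ad libitum libraries. FAN ad libitum 7 lay within the vehicle range while 10 and 12 were the highest of all, and the log2 changes of Gzma were 2.37 ± 0.82 (SE, edgeR adjusted p = 0.0257) under time-restricted and 2.57 ± 0.76 (SE, edgeR adjusted p = 0.00684) under ad libitum feeding. Gzma lost the call under time-restricted feeding without FAN time-restricted 6 or 10 or vehicle time-restricted 2 or 4 (edgeR adjusted p = 0.0537 to 0.0699). Gzma did not pass under ad libitum feeding in the earliest run of sheet positions alone (0.39, edgeR adjusted p = 0.727), with the 3 runs as a covariate (1.36, edgeR adjusted p = 0.212) or with limma voom (1.54, limma adjusted p = 0.0611). Its time-restricted change did not pass in the earliest run alone (2.40, edgeR adjusted p = 0.109) or with the 3 runs as a covariate (1.19, edgeR adjusted p = 0.378). Klrk1, which encodes the activating receptor NKG2D of NK and CD8 T cells, measured 5.37, 5.21, 4.52 and 3.81 CPM in FAN time-restricted and 3.20, 3.20, 6.86 and 4.82 CPM in FAN ad libitum libraries. Klrk1 was at 0.508, 0.425, 0.495 and 0.326 CPM in vehicle time-restricted and 1.01, 1.02, 0.384 and 0.631 CPM in vehicle ad libitum libraries. Its groups did not overlap, and the log2 changes were 3.39 ± 0.34 (SE, edgeR adjusted p = 3.91e-07) under time-restricted and 2.52 ± 0.31 (SE, edgeR adjusted p = 1.32e-06) under ad libitum feeding. Klrb1c, which encodes the NK1.1 antigen of this mouse strain, measured 0.895, 0.831, 0.511 and 0.465 CPM in FAN time-restricted and 0.649, 0.308, 1.14 and 1.08 CPM in FAN ad libitum libraries. Klrb1c was at 0.0847, 0, 0.0450 and 0.244 CPM in vehicle time-restricted and 0.235, 0.140, 0.0479 and 0.252 CPM in vehicle ad libitum libraries. FAN libraries were all above vehicle libraries, with log2 changes of 3.16 ± 0.70 (SE, edgeR adjusted p = 0.00140) and 2.19 ± 0.58 (SE, edgeR adjusted p = 0.00311) under time-restricted and ad libitum feeding, and 13.9% of its 50-base windows also occur in Gm44511. Nkg7, a granule protein of cytotoxic cells, measured 1.63, 3.67, 3.30 and 2.51 CPM in FAN time-restricted and 1.80, 2.07, 1.89 and 2.14 CPM in FAN ad libitum libraries. Nkg7 was at 0.677, 0.532, 0.495 and 1.06 CPM in vehicle time-restricted and 0.840, 1.33, 0.479 and 0.631 CPM in vehicle ad libitum libraries. It rose with log2 changes of 2.06 ± 0.34 (SE, edgeR adjusted p = 0.000102) under time-restricted and 1.23 ± 0.32 (SE, edgeR adjusted p = 0.00293) under ad libitum feeding. Ncr1, the receptor NKp46 that defines NK cells, was too low to be tested and measured 0.195, 0.131, 0.118 and 0.372 CPM in FAN time-restricted and 0.168, 0.267, 0.473 and 0.619 CPM in FAN ad libitum libraries. Ncr1 was at 0.0423, 0.0354, 0 and 0 CPM in vehicle time-restricted and 0, 0.280, 0.240 and 0 CPM in vehicle ad libitum libraries. Ncr1 had 15 counts in FAN time-restricted and 2 in vehicle time-restricted libraries, a depth-adjusted ratio of 7.64 (exact 95% counting interval 1.78 to 68.8). That interval leaves out the spread between libraries and is no test of a rise.

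The perforin gene rose under time-restricted feeding and did not pass under ad libitum feeding. Prf1 (ENSMUSG00000037202, chromosome 10, 61297833 to 61304680), which encodes the pore-forming protein that lets granzymes into cells, measured 0.311, 0.437, 0.432 and 0.372 CPM in FAN time-restricted and 0.272, 0.472, 0.513 and 0.309 CPM in FAN ad libitum libraries. Prf1 was at 0.0847, 0.142, 0.0900 and 0.163 CPM in vehicle time-restricted and 0.470, 0.421, 0.479 and 0.315 CPM in vehicle ad libitum libraries. FAN time-restricted, FAN ad libitum and vehicle ad libitum libraries overlapped, and the 4 vehicle time-restricted libraries, with 2 to 4 counts each, lay below all others. Prf1 rose under time-restricted feeding (1.70 ± 0.44 SE, edgeR adjusted p = 0.00422) and had a log2 change of -0.14 ± 0.34 (SE, edgeR adjusted p = 0.747) under ad libitum feeding. The difference between these changes, the interaction of FAN and feeding, was 1.84 ± 0.56 (SE, edgeR adjusted p = 0.0450), and Prf1 was the only member to pass there, beside 9.16% of all genes in either direction and 7.76% with a positive interaction. The interaction of Prf1 did not pass when any library but FAN ad libitum 10 or vehicle time-restricted 4 was left out (edgeR adjusted p = 0.0533 to 0.1), and 4 other members had an unadjusted p under 0.05, all positive: Cd3d, Trbc2, Gzmb and Tbx21. Of these, Trbc2 passed when FAN ad libitum 12 or vehicle ad libitum 3 was left out (edgeR adjusted p = 0.0144 and 0.0306), and Gzmb passed when vehicle time-restricted 3 was left out (edgeR adjusted p = 0.0477).

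Among the lineage transcription factors, Foxp3, which defines regulatory T cells, rose under both regimens. Foxp3 (ENSMUSG00000039521, chromosome X, 7573644 to 7595245) measured 0.350, 0.525, 0.472 and 0.186 CPM in FAN time-restricted and 1.57, 1.33, 0.355 and 1.42 CPM in FAN ad libitum libraries. Foxp3 was at 0.0423, 0.106, 0.135 and 0 CPM in vehicle time-restricted and 0.0672, 0.0351, 0.240 and 0 CPM in vehicle ad libitum libraries. FAN ad libitum 6, 7 and 12 were far above all others, FAN ad libitum 10 was within the FAN time-restricted range, and the vehicle libraries held 0 to 5 counts each. The log2 changes were 2.27 ± 0.73 (SE, edgeR adjusted p = 0.0171) under time-restricted and 3.73 ± 0.64 (SE, edgeR adjusted p = 6.06e-05) under ad libitum feeding, and without vehicle time-restricted 1 the time-restricted value was 2.05 and did not pass (edgeR adjusted p = 0.0523). Foxp3 shares 853 exon bases with Flicr on the same strand and 590 with Ccdc22 on the opposite strand, and neither of those genes had enough counts to be tested. Tbx21, the T-bet factor of type 1 helper, CD8 and NK cells, measured 0.350, 1.05, 0.943 and 0.650 CPM in FAN time-restricted and 0.586, 0.677, 0.552 and 0.619 CPM in FAN ad libitum libraries. Tbx21 was at 0.169, 0.106, 0.0450 and 0 CPM in vehicle time-restricted and 0.571, 0.0701, 0.240 and 0.126 CPM in vehicle ad libitum libraries. Tbx21 rose under time-restricted feeding (2.99 ± 0.64 SE, edgeR adjusted p = 0.00104) and had a log2 change of 1.20 ± 0.52 (SE, edgeR adjusted p = 0.0561) under ad libitum feeding, where vehicle ad libitum 1 stood at FAN level. Without vehicle ad libitum 1 that change was 2.07 and passed (edgeR adjusted p = 0.00496), and the interaction of Tbx21 did not pass (1.79 ± 0.85 SE, edgeR adjusted p = 0.204). Eomes, the related factor of NK and memory CD8 T cells, ranged over 0.175 to 0.558 CPM in FAN time-restricted, 0.309 to 0.554 CPM in FAN ad libitum, 0.0815 to 0.254 CPM in vehicle time-restricted and 0.192 to 0.568 CPM in vehicle ad libitum libraries. Its groups overlapped, and it passed under neither time-restricted (1.06 ± 0.51 SE, edgeR adjusted p = 0.10) nor ad libitum feeding (0.45 ± 0.44 SE, edgeR adjusted p = 0.402). Gata3, the factor of type 2 helper T cells that the kidney collecting duct also expresses, ranged over 15.3 to 18.9 CPM in FAN time-restricted, 12.4 to 22.6 CPM in FAN ad libitum, 9.29 to 16.9 CPM in vehicle time-restricted and 10.8 to 18.9 CPM in vehicle ad libitum libraries. Its log2 changes of 0.50 ± 0.21 (SE, edgeR adjusted p = 0.0586) and 0.31 ± 0.20 (SE, edgeR adjusted p = 0.203) under time-restricted and ad libitum feeding did not pass, and without vehicle time-restricted 2 the time-restricted change was 0.69 and passed (edgeR adjusted p = 0.0148). Of 8 collecting duct markers tested 3 fell and none rose under each regimen, and their part in the Gata3 values was not tested. Gata3 was left out of the summed levels given below because duct cells express it.

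No B or plasma cell gene rose in the fit of all 16 libraries, and 1 fell. Cd79a (ENSMUSG00000003379), the signalling chain that defines B cells, measured 0.311, 0.0875, 0.354 and 0.0929 CPM in FAN time-restricted and 0.482, 0.985, 0.237 and 0.464 CPM in FAN ad libitum libraries. Cd79a was at 0.508, 0.532, 0.405 and 0.0815 CPM in vehicle time-restricted and 0.874, 0.421, 0.623 and 0.378 CPM in vehicle ad libitum libraries. Its FAN and vehicle libraries overlapped, and the log2 changes were -0.82 ± 0.58 (SE, edgeR adjusted p = 0.270) under time-restricted and -0.07 ± 0.48 (SE, edgeR adjusted p = 0.909) under ad libitum feeding, neither of which passed. Ms4a1, which encodes CD20, measured 0.623, 0.262, 0.0786 and 0.186 CPM in FAN time-restricted and 0.419, 0.308, 0.158 and 0.490 CPM in FAN ad libitum libraries. Ms4a1 was at 0.296, 0.177, 0.0900 and 0 CPM in vehicle time-restricted and 0.302, 0.140, 0.0479 and 0.189 CPM in vehicle ad libitum libraries. With 0 to 20 counts a library, Ms4a1 did not pass under time-restricted (0.91 ± 0.70 SE, edgeR adjusted p = 0.313) or ad libitum feeding (0.98 ± 0.63 SE, edgeR adjusted p = 0.190). Cd79b, the partner of CD79A, ranged over 2.83 to 3.35 CPM in FAN time-restricted, 2.74 to 4.38 CPM in FAN ad libitum, 0.974 to 2.20 CPM in vehicle time-restricted and 0.883 to 3.64 CPM in vehicle ad libitum libraries. FAN and vehicle libraries overlapped under ad libitum feeding and not under time-restricted feeding. Its log2 changes were 0.82 ± 0.34 (SE, edgeR adjusted p = 0.0638) and 0.64 ± 0.33 (SE, edgeR adjusted p = 0.102) under time-restricted and ad libitum feeding, and without vehicle ad libitum 3 the ad libitum change was 1.01 and passed (edgeR adjusted p = 0.013). Under time-restricted feeding Cd79b passed with limma voom (0.86, limma adjusted p = 0.0182) and in a fit of the compared groups alone (0.79, edgeR adjusted p = 0.0311). Under library size scaling, which moved the median of all genes to 0.76 under ad libitum feeding, Ms4a1 (1.68, edgeR adjusted p = 0.0229) and Cd79b (1.32, edgeR adjusted p = 0.00248) passed as well. With limma voom Cd79a fell under time-restricted feeding (-1.45, limma adjusted p = 0.0286). Pax5, the B lineage factor, was too low to be tested, with 0 to 0.545 CPM in FAN time-restricted, 0.0820 to 0.309 CPM in FAN ad libitum, 0.0847 to 0.213 CPM in vehicle time-restricted and 0.0631 to 0.336 CPM in vehicle ad libitum libraries.

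The immunoglobulin genes varied widely between libraries. Ighm, the constant region of the mu heavy chain, measured 47.0, 77.2, 27.7 and 18.1 CPM in FAN time-restricted and 32.2, 56.5, 24.6 and 39.5 CPM in FAN ad libitum libraries. Ighm was at 8.38, 78.7, 11.5 and 6.76 CPM in vehicle time-restricted and 9.24, 14.7, 10.2 and 16.4 CPM in vehicle ad libitum libraries. FAN libraries were higher than vehicle libraries apart from vehicle time-restricted 2, which was the highest of all 16. The log2 changes of Ighm were 0.68 ± 0.70 (SE, edgeR adjusted p = 0.461) under time-restricted and 1.60 ± 0.72 (SE, edgeR adjusted p = 0.0687) under ad libitum feeding, and without vehicle time-restricted 2 the time-restricted change was 2.25 and passed (edgeR adjusted p = 0.001). The ad libitum groups of Ighm did not overlap, and that change passed with DESeq2 (1.59, adjusted p = 0.0373), limma voom (1.71, adjusted p = 0.0371), library size scaling (2.32, edgeR adjusted p = 0.0121) and the compared groups alone (1.57, edgeR adjusted p = 0.000437). Under time-restricted feeding Ighm passed with limma voom (1.89, adjusted p = 0.0142). Jchain, which joins IgM and IgA into polymers, measured 14.7, 16.1, 14.1 and 20.9 CPM in FAN time-restricted and 0.901, 6.24, 4.97 and 6.27 CPM in FAN ad libitum libraries. Jchain was at 2.75, 15.1, 2.52 and 2.04 CPM in vehicle time-restricted and 2.05, 3.01, 2.59 and 3.91 CPM in vehicle ad libitum libraries. FAN time-restricted libraries were the highest group, vehicle time-restricted 2 reached their level, and FAN ad libitum 6 was the lowest of all. Its log2 changes of 1.51 ± 0.60 (SE, edgeR adjusted p = 0.0544) and 0.68 ± 0.62 (SE, edgeR adjusted p = 0.363) under time-restricted and ad libitum feeding did not pass, and without vehicle time-restricted 2 the time-restricted change was 2.73 and passed (edgeR adjusted p = 0.000229). Jchain passed under time-restricted feeding with limma voom (2.17, adjusted p = 0.00252) and with library size scaling (1.58, edgeR adjusted p = 0.0443) as well. Without that library 2 of 6 B and plasma cell genes thus rose under time-restricted feeding. Mzb1, a chaperone of immunoglobulin assembly in the endoplasmic reticulum, measured 0.428, 0.525, 0.314 and 0.465 CPM in FAN time-restricted and 0.293, 0.226, 0.355 and 0.232 CPM in FAN ad libitum libraries. Mzb1 was at 1.27, 0.992, 0.360 and 0.407 CPM in vehicle time-restricted and 1.45, 0.946, 0.911 and 0.946 CPM in vehicle ad libitum libraries. Mzb1 was the only member to fall in FAN relative to vehicle kidneys, under ad libitum feeding (-1.96 ± 0.39 SE, edgeR adjusted p = 0.000281), where the groups did not overlap. The time-restricted change was -0.86 ± 0.41 (SE, edgeR adjusted p = 0.0955), and without vehicle time-restricted 3 it was -1.10 and passed (edgeR adjusted p = 0.0363). Mzb1 shares 695 exon bases and 75.7% of its 50-base windows with a Spata24 transcript. Spata24 fell as well, with log2 changes of -0.96 under time-restricted (edgeR adjusted p = 0.0122) and -0.98 under ad libitum feeding (edgeR adjusted p = 0.00657), and reads of the 2 genes cannot be told apart here.

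Promoter sequences were compared because most of the T and NK genes rose together. RefSeq promoters (build GRCm38.p6, 250 bases before to 50 after the start) matched 25 of the 38 members, with 27 promoters of 22 T and NK genes and 3 promoters of 3 B and plasma cell genes. Those of Cd3e, Lck, Gzmb and Cd79a are shown as examples of a receptor chain, a kinase, a granzyme and a B cell gene, with capitals for the RUNX letters TGTGGT, the ETS letters CAGGAAG and the E-box letters CAGGTG on either strand.
Cd3e, chr9:45009562-45009861, minus strand: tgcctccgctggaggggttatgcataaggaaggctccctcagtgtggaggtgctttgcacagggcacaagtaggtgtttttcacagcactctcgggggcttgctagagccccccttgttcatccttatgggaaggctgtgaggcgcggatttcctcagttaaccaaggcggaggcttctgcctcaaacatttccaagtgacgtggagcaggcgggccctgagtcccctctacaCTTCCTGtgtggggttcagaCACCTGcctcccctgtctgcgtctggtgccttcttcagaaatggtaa
Lck, chr4:129573592-129573891, minus strand: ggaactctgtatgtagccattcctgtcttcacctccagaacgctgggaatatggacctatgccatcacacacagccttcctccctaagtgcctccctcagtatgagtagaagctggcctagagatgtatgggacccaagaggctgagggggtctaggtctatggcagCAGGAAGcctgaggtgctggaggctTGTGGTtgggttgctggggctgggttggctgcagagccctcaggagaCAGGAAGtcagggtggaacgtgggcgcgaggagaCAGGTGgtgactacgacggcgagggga
Gzmb, chr14:56262285-56262584, minus strand: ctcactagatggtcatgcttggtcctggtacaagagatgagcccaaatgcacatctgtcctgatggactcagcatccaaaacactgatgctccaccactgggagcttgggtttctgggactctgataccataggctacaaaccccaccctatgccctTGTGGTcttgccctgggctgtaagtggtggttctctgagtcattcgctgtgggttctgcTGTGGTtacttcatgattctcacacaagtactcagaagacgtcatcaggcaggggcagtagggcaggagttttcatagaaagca
Cd79a, chr7:24897247-24897546, plus strand: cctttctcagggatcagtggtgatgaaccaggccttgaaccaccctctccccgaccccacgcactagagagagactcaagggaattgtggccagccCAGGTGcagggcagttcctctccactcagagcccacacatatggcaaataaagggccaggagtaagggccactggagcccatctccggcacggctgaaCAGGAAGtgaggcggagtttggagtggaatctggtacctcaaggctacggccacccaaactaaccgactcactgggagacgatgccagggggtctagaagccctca
The Lck window shown holds all 3 motifs, the Gzmb window holds the RUNX letters at 2 places, and the Cd3e and Cd79a windows each hold the ETS and E-box letters. Another Lck promoter, chr4:129558323-129558622, holds the ETS and E-box letters and no RUNX letters. The E-box letters were in 13 of 27 T and NK promoters (48.1%) and in 20.2% of all 32851 promoters of this length. The RUNX letters were in 11 of 27 (40.7%, against 16.8% of all promoters) and the ETS letters in 10 of 27 (37.0%, against 13.3%). Of the other motifs searched on both strands, the GATA letters AGATAA were in 2 of 27 (7.41%, against 11.2%), the EBF letters CCCNNGGG in 2 of 27 (7.41%, against 13.7%), the T-box letters AGGTGTGA in 1 of 27 (3.70%, against 1.28%) and the TATA letters TATAAA in 2 of 27 (7.41%, against 13.6%). Of the 3 B and plasma cell promoters, none held the RUNX letters, 1 held the ETS letters and 2 the E-box letters. The E-box and T-box letters can overlap by 5 bases (AGGTG), and 4 members have more than 1 promoter, so the 27 are not independent. Windows of Ncr1 (chr7:4337465-4337764 and chr7:4337474-4337773) overlap and hold the same RUNX letters, counted for each. Ncr1 was too low to be tested for a rise. A match of letters is a description of the window and does not show that a factor binds there.

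Among other lymphocyte genes, from lists of the same kinds of cell, most of the T, NK and innate lymphoid genes rose. Beside the counts of these and the following lists, 24.5% of all genes tested rose and 19% fell under time-restricted feeding. Under ad libitum feeding 32.1% of all genes rose and 28.6% fell. Of 28 other T cell genes tested, 23 rose and 1 fell under time-restricted feeding, and 20 rose and 2 fell under ad libitum feeding. Among those with the smallest p in both comparisons was the signalling gene Rhoh, with log2 changes of 3.28 under time-restricted and 3.71 under ad libitum feeding. Of 15 other NK and cytotoxic genes, 13 rose and none fell under each regimen, among them Cd226, an activating receptor (4.13 under time-restricted and 3.06 under ad libitum feeding), and Il18rap, a chain of the interleukin 18 receptor (3.39 and 3.45). Of 6 gamma-delta T and innate lymphoid genes, 4 rose and none fell under time-restricted feeding, and 5 rose and 1 fell under ad libitum feeding. Il1rl1, the interleukin 33 receptor of type 2 innate lymphoid and regulatory T cells, had log2 changes of 3.58 under time-restricted and 4.06 under ad libitum feeding.

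Of 17 other B cell genes, 8 rose and 1 fell under time-restricted feeding, and 9 rose and 2 fell under ad libitum feeding. Those with the smallest p included Cd72 (1.95 under time-restricted and 2.58 under ad libitum feeding) and Cd180 (2.23 and 2.77), surface receptors that B cells share with myeloid cells. Of 11 other plasma cell genes, 3 rose and none fell under time-restricted feeding, and 3 rose and 1 fell under ad libitum feeding, with Prdm1, a factor of plasma cell differentiation also found in T cells, at 2.19 and 1.62. The plasma cell genes that rose made up a share near that of all genes, 24.5% under time-restricted and 32.1% under ad libitum feeding. Of 9 follicle and lymphocyte chemokine genes, 6 rose and none fell under time-restricted feeding, and 6 rose and 1 fell under ad libitum feeding. Cxcl16, a chemokine that draws activated T and NKT cells, had log2 changes of 2.12 and 2.30, and Ltb, the lymphotoxin beta of lymphocytes, had 3.37 and 3.45.

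Markers of other leukocytes moved with the T and NK genes. Of 18 macrophage and dendritic cell markers, 17 rose and none fell under time-restricted feeding and 18 rose under ad libitum feeding, with medians of 3.03 and 3.22 on the log2 scale. Their summed level ranged over 1046 to 2079 CPM in FAN time-restricted, 2193 to 3241 CPM in FAN ad libitum, 150 to 212 CPM in vehicle time-restricted and 164 to 307 CPM in vehicle ad libitum libraries. Of 11 pan-leukocyte genes, 10 rose under time-restricted and 11 under ad libitum feeding, among them Ptprc, which encodes CD45 (3.22 and 3.23). Of 8 kidney tubule markers, 5 fell and none rose under each regimen, and their sum ranged over 4821 to 6387 CPM in FAN time-restricted, 2491 to 5406 CPM in FAN ad libitum, 8563 to 9554 CPM in vehicle time-restricted and 8223 to 9353 CPM in vehicle ad libitum libraries. Kidney tubule markers were thus abundant in every library, as the tissue label has it. The part that a changed share of tubule RNA has in the lymphocyte values was not tested.

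Time-restricted and ad libitum feeding were compared within FAN kidneys to see whether regimen moved the lymphocyte genes after injury. Of 36 members tested 1 rose and 1 fell, where 17.9% and 13.9% of all genes tested did (31.8% together), and 34 did not pass. None of the 31 T and NK genes separated the 2 groups, while 28% of all genes tested did. The median log2 change of the 30 T and NK genes tested was -0.07, against -0.02 over all genes. All genes showed a trend with transcript length in this comparison, with medians from 0.196 in the shortest to -0.21 in the longest of 5 length classes, and its part in the members' values was not tested. Cd3d had a log2 change of 0.43 ± 0.28 (SE, edgeR adjusted p = 0.250), Cd4 of -0.58 ± 0.40 (SE, edgeR adjusted p = 0.288), Cd8a of 0.18 ± 0.26 (SE, edgeR adjusted p = 0.625) and Klrk1 of 0.08 ± 0.27 (SE, edgeR adjusted p = 0.850). The standard errors of the 30 genes ranged from 0.20 to 0.63. Scaling by library size alone, with no TMM, gave all genes a median of -0.67 and the members a median of -0.72 in this comparison, and 7 members then fell and none rose, where 64.9% of all genes rose or fell: Cd3e, Lck, Cd4, Lag3, Gata3, Cd79a and Foxp3. A weighting of libraries by their quality (limma voom) called 11 of 36 members (30.6%), beside 52.5% of all genes, of which Cd3d, Cd3g, Trbc1, Trbc2, Nkg7, Klrk1, Gzma and Jchain were higher in FAN time-restricted libraries and Cd3e, Cd79a and Foxp3 lower. Gzma had a log2 change of 1.35 under that weighting (limma adjusted p = 0.0287), opposite in sign to the edgeR value of -0.34 ± 0.63 (SE, edgeR adjusted p = 0.712). Leaving out FAN ad libitum 12, Trbc2 rose by 1.03 (edgeR adjusted p = 0.0245). Without FAN ad libitum 10, Cd79a had a log2 change of -1.48 (edgeR adjusted p = 0.0426), and without FAN time-restricted 11, Lag3 had -0.85 (edgeR adjusted p = 0.0479).

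Foxp3 was the member that fell, at -1.55 ± 0.52 (SE, edgeR adjusted p = 0.0288). Its values, 0.350, 0.525, 0.472 and 0.186 CPM in FAN time-restricted and 1.57, 1.33, 0.355 and 1.42 CPM in FAN ad libitum libraries, overlapped through FAN ad libitum 10. The call was lost without FAN ad libitum 6, 7 or 12 or FAN time-restricted 6 or 12, with changes of -1.39 to -1.49 (edgeR adjusted p = 0.0586 to 0.0865). Il2ra, the CD25 chain that regulatory and activated T cells carry, fell too, with a log2 change of -1.78 (edgeR adjusted p = 0.0048), as did Tnfrsf18, a receptor on the same cells, at -0.75 (edgeR adjusted p = 0.0132). Ccr7, the receptor that brings T and dendritic cells to lymph nodes, fell by 1.21 on the log2 scale (edgeR adjusted p = 0.00555), and Tcf7, a factor of naive and memory T cells, fell by 0.96 (edgeR adjusted p = 0.0252). Gzmk, a granzyme of memory CD8 T cells, rose by 1.36 (edgeR adjusted p = 0.0225). Over the lists, 1 of 28 other T cell genes rose and 3 fell, and 1 of 15 other NK and cytotoxic genes rose and none fell.

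Jchain was the member that rose, at 1.84 ± 0.60 (SE, edgeR adjusted p = 0.0304), and its 14.1 to 20.9 CPM in FAN time-restricted libraries lay above the 0.901 to 6.27 CPM in FAN ad libitum libraries. The call was lost without FAN ad libitum 6, 7 or 10 or FAN time-restricted 10 or 12 (edgeR adjusted p = 0.0523 to 0.0683). Ighm did not pass in the same comparison (0.16 ± 0.69 SE, edgeR adjusted p = 0.884), and none of 11 other plasma cell genes rose or fell. Of 17 other B cell genes 1 rose and 5 fell, beside 17.9% and 13.9% of all genes tested. Cd180 (-1.26, edgeR adjusted p = 0.00169) and Cd72 (-0.95, edgeR adjusted p = 0.00434) were lower, and Ralgps2 (0.57, edgeR adjusted p = 0.00139) was higher. Cd79a had a log2 change of -1.27 ± 0.55 (SE, edgeR adjusted p = 0.0840).

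Macrophage markers were set beside these values in the same libraries. Of the 18 macrophage and dendritic cell markers, none rose and 13 fell, with a median log2 change of -0.75 (-1.38 and 16 that fell under library size scaling). Mrc1, the mannose receptor of tissue macrophages, changed by -0.99 (edgeR adjusted p = 8.26e-05), and Csf1r, the receptor for their growth factor, changed by -1.06 (edgeR adjusted p = 0.00105). The number of these markers that fell was 8 without FAN ad libitum 6 or 7, without FAN time-restricted 12 or with early or late sheet position as a covariate. The difference between the lymphocyte and macrophage medians carries no test.

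**Figure D3:**
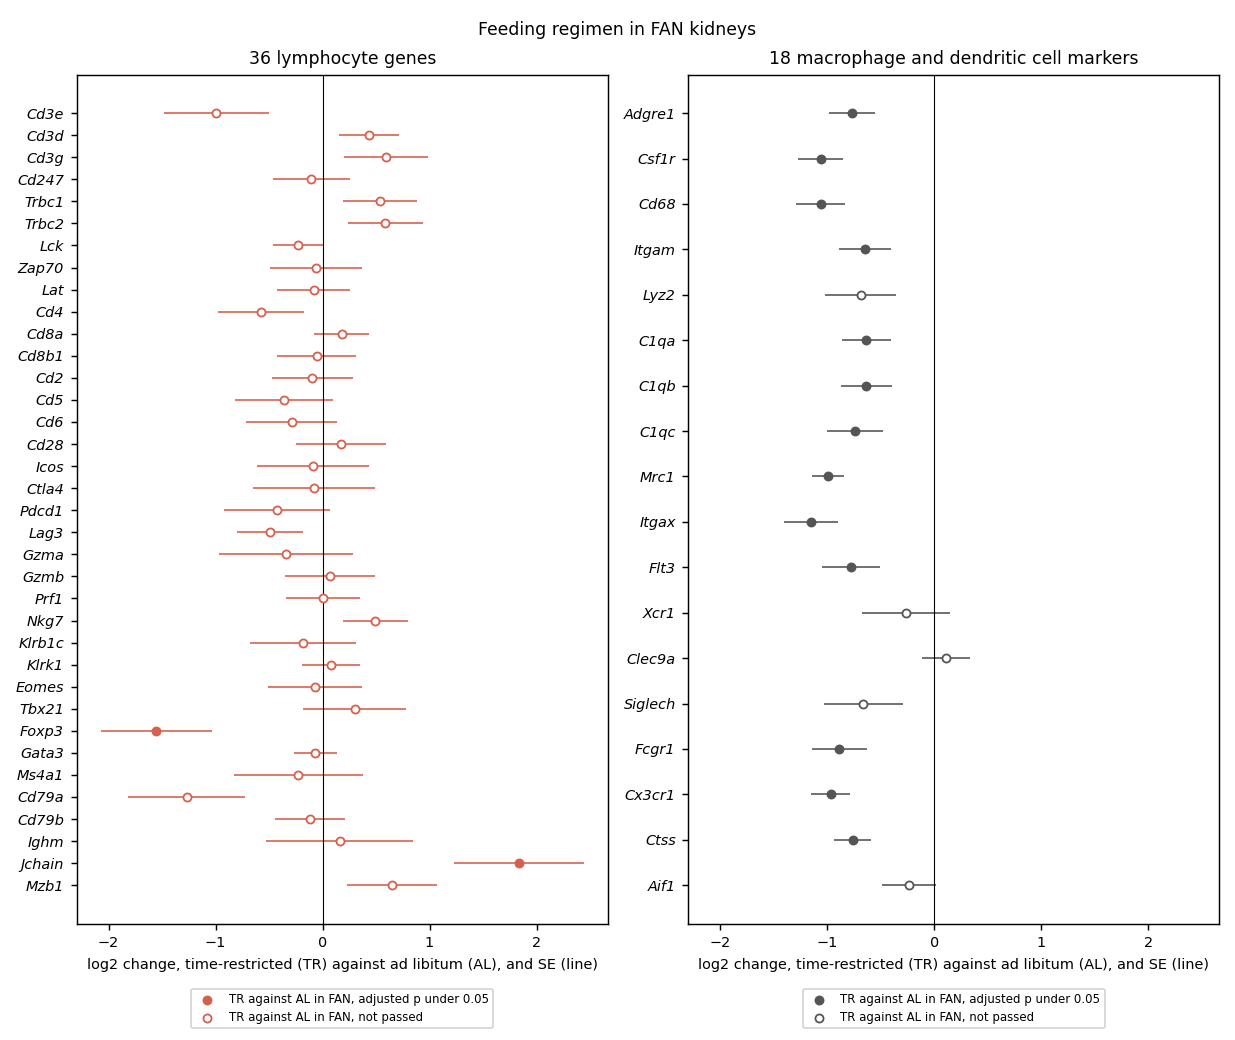
Log2 change with time-restricted feeding, relative to ad libitum feeding, among FAN kidneys for the 36 lymphocyte genes tested and 18 macrophage and dendritic cell markers, with points for the change, lines for 1 SE, and filled points where edgeR's adjusted p was under 0.05. T and NK genes lie on both sides of 0 with Foxp3 filled on the left and Jchain filled on the right, and 13 of the 18 macrophage and dendritic cell markers are filled on the left.

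The summed T and NK levels show the same values by library. The sum over 30 T and NK genes, Gata3 left out, was 63.5, 78.8, 78.0 and 46.8 CPM in FAN time-restricted, 60.0, 61.2, 56.0 and 87.1 CPM in FAN ad libitum, 12.6, 12.1, 11.9 and 9.69 CPM in vehicle time-restricted, and 21.8, 20.1, 9.11 and 15.5 CPM in vehicle ad libitum libraries. FAN time-restricted and FAN ad libitum libraries covered overlapping ranges, each far above both vehicle groups. The B and plasma cell sum was 63.1 ± 25.0 CPM in FAN time-restricted, 47.5 ± 15.3 CPM in FAN ad libitum, 35.1 ± 41.9 CPM in vehicle time-restricted and 19.6 ± 3.30 CPM in vehicle ad libitum libraries (SD, n = 4 each), and Ighm makes up most of it. Without vehicle time-restricted 2, the sums of the vehicle time-restricted libraries were 11.7 to 16.7 CPM. For each 100 CPM of macrophage and dendritic cell markers, the T and NK sum was 3.75 to 4.48 CPM in FAN time-restricted, 1.79 to 2.73 CPM in FAN ad libitum, 5.59 to 8.26 CPM in vehicle time-restricted and 5.56 to 10.2 CPM in vehicle ad libitum libraries. This ratio does not depend on how libraries are scaled. All 4 FAN time-restricted libraries had more T and NK transcript per macrophage transcript than all 4 FAN ad libitum libraries, and both vehicle groups lay above both FAN groups. For each 100 CPM of pan-leukocyte genes the T and NK sum was 18.1 to 19.4 CPM in FAN time-restricted and 12.2 to 16.2 CPM in FAN ad libitum libraries, while the vehicle groups, at 14.2 to 19.2 CPM under time-restricted and 13.9 to 24.8 CPM under ad libitum feeding, overlapped both. These ratios are descriptions and carry no test.

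**Figure D4:**
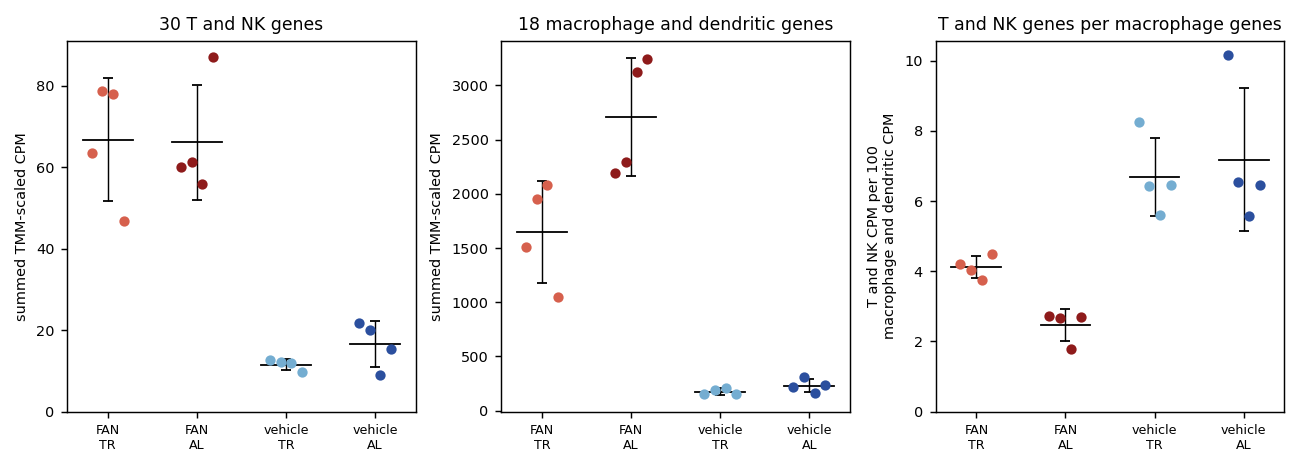
Summed TMM-scaled CPM of 30 T and NK genes and of 18 macrophage and dendritic cell markers, and the T and NK sum for each 100 CPM of those markers, in the 16 libraries, with points for libraries and lines for the mean and SD of 4 per group. T and NK sums are 46.8 to 78.8 CPM in FAN time-restricted and 56.0 to 87.1 CPM in FAN ad libitum libraries, macrophage sums are lower in FAN time-restricted than in FAN ad libitum libraries, and the ratio is 3.75 to 4.48 in FAN time-restricted and 1.79 to 2.73 in FAN ad libitum libraries.

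Time-restricted and ad libitum feeding were also compared within vehicle kidneys, as the background of regimen without injury. No member passed in edgeR or DESeq2, and no gene of 17731 tested passed in edgeR (0%). At an unadjusted p under 0.05, 6 members were lower in vehicle time-restricted than in vehicle ad libitum libraries in edgeR (Trbc2, Cd2, Gzmb, Prf1, Klrk1 and Tbx21), 7 members passed that level in DESeq2, and 1143 of all genes did in edgeR. In a fit of the vehicle libraries alone 17 members had enough counts to be tested, 1 had an unadjusted p under 0.05 and the T and NK median was -0.37. The log2 changes of 28 of 30 T and NK genes were negative, with a median of -0.54 against -0.01 over all genes. In Gzmb and Prf1 the groups did not overlap, where 4.85% of all genes did not. Gzmb had 1 count in vehicle time-restricted and 12 in vehicle ad libitum libraries, a depth-adjusted ratio of 0.0917 (exact 95% counting interval 0.00214 to 0.62), and Prf1 had a log2 change of -1.83 ± 0.43 (SE, edgeR adjusted p = 0.220).

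Whether the FAN change differed between regimens was tested for each gene as the interaction of FAN and feeding. Prf1, described above, was the only one of 36 members past the threshold. The median interaction of the T and NK genes was 0.61, against 0.02 over all genes, and comparisons that share the FAN or the vehicle libraries are not independent of one another. Cd3d had an interaction of 1.20 ± 0.48 (SE, edgeR adjusted p = 0.129) and Foxp3 of -1.46 ± 1.08 (SE, edgeR adjusted p = 0.441). Jchain passed when vehicle time-restricted 2 was left out (2.06, edgeR adjusted p = 0.0474). Among 28 other T cell genes 2 passed, Themis, a regulator of T cell receptor signalling (2.85, edgeR adjusted p = 0.0254), and Cd96, a receptor of T and NK cells (3.18, edgeR adjusted p = 0.036). Of the 18 macrophage and dendritic cell markers 1 passed, Mrc1, with -0.95 (edgeR adjusted p = 0.0151). Beside these counts, 9.16% of all genes tested passed in either direction, 7.76% with a positive and 1.4% with a negative interaction.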

How the data were processed

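Kidney RNA was extracted with TRIzol from frozen powder and made into TruSeq Stranded mRNA libraries, per the labels' protocols. The deposited values are raw counts per gene in 1 table, and the submitters' processing notes name FastQC 0.11.5, STAR 2.5.3a, edgeR 3.26.7 and mm10; how reads were counted per gene, and whether by strand, is not given in the sources used here. All 16 libraries entered 1 fit of 4 groups in edgeR 4.0.16 (R 4.3.3) with TMM scaling, filterByExpr at a minimum count of 10, robust quasi-likelihood tests, and Benjamini-Hochberg adjustment over 17731 genes, with a threshold of 0.05. SE is the absolute log2 change divided by the root of the F statistic. Alternatives used DESeq2 1.42.0, limma 3.58.1, other scalings, no filter, sheet positions and fewer libraries. The fits were tested on simulated data. Library totals were 12450812 to 28255417 in FAN time-restricted, 19266923 to 33035197 in FAN ad libitum, 14124323 to 31699747 in vehicle time-restricted and 18788303 to 33976660 in vehicle ad libitum libraries.

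The members and lists were chosen with earlier results of these data known. All 38 members are accounted for. Values of every library are given for each member past the threshold in any comparison or that defines a cell type, and from each other list at most 3 genes per comparison with the smallest p. Coordinates come from GENCODE M21 (GRCm38) and promoters from RefSeq.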

Additional observations from a re-analysis of the deposited data

Results flagged for a closer look

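In 8 of 152 combinations of a member and a group, 1 library lay farther from the other 3 than Dixon's limit for 4 samples allows, and chance alone marks about 1 group in 20. Cd3e was 0.591 CPM in FAN ad libitum 10, below the 1.70 to 1.89 CPM of the other FAN ad libitum libraries. Cd3g was 7.25 CPM in FAN ad libitum 12, above 3.20 to 3.55 CPM in the others. Ctla4 and Gzmb were each 0.0450 CPM in vehicle time-restricted 3, which is 1 count, with 0 in the others. Eomes was 0.568 CPM in vehicle ad libitum 4, above 0.192 to 0.245 CPM. Mzb1 was 1.45 CPM in vehicle ad libitum 1, above 0.911 to 0.946 CPM. Ighm was 78.7 CPM in vehicle time-restricted 2, above 6.76 to 11.5 CPM, and Jchain was 15.1 CPM in the same library, above 2.04 to 2.75 CPM.

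That library also had 155.8 CPM of 21 other B cell genes, against 53.5 to 64.2 CPM in the other vehicle time-restricted libraries. Prf1 had an interaction of FAN and feeding of 1.84 on the log2 scale (edgeR adjusted p = 0.045). It did not pass with RLE scaling (edgeR adjusted p = 0.0503) or in most of the 16 fits with 1 library left out. The vehicle time-restricted libraries held 2 to 4 counts each of Prf1.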

How the results depend on the processing

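Counts of members called are out of 36 tested, 36 or 37 with 1 library left out, 38 with no filter or with the earliest sheet positions alone, 29 to 35 with DESeq2 and 17 to 35 with the compared groups alone. For FAN against vehicle under ad libitum feeding, 27 were called, 25 to 27 with 1 library left out, and every alternative stayed within 1.5 times. With the 3 runs of sheet positions as a covariate, chosen after seeing the data, 22 of 36 were called under each regimen. Lost there were Cd3e, Cd247, Trbc1, Gzma and Nkg7 under ad libitum feeding. Under time-restricted feeding the same covariate lost Cd3e, Cd247, Lat, Icos, Gzma and Prf1. Under time-restricted feeding 28 were called, 18 with the earliest sheet positions alone and 24 to 28 with 1 library left out. Between the regimens in FAN, 2 were called, against 1 with DESeq2, 1 with no filter, 7 with library size scaling, 11 with limma voom and 0 with the 3 runs of sheet positions as a covariate, an alternative chosen after seeing the data. With 1 library left out it was 0 to 3, with 0 without FAN ad libitum 6 or 7 or FAN time-restricted 12. In vehicle, 0 were called throughout. For the interaction 1 was called, against 0 with RLE scaling, library size scaling, no filter, early or late sheet position or the 3 runs as a covariate, 3 with the earliest positions alone and 7 with limma voom, and 0 to 1 with 1 library left out. DESeq2 called 1 there, Trbc2 (1.59, adjusted p = 0.04) and not Prf1. The reversed value was Gzma in FAN, 1.35 with limma voom. The cause of these differences was not tested.

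The log2 change of all genes had a median of 0.76 (ad libitum) and 0.16 (time-restricted) for FAN against vehicle under library size scaling, and -0.57 for the interaction. Deviations from the group mean had correlations of 0.179, 0.119, -0.146 and -0.0134 between same-numbered vehicle libraries. Those between differently numbered ones ran from -0.284 to 0.325, so this check cannot tell whether the numbers pair the libraries. A fit of the vehicle libraries with the replicate block called 0 of 17 members tested. FAN columns share the numbers 6, 10 and 12 between regimens, with correlations of -0.128, -0.0533 and -0.25. Differently numbered FAN libraries had -0.164 to 0.257, and with so few values pairing is neither shown nor excluded there. Over those 6 libraries alone, 1 of 35 members was called with the replicate block and 1 without it, alternatives chosen after seeing the data. Ncr1 and Pax5 did not pass the filter on low counts in the fit of all libraries.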
